A study of Mus musculus with 4 samples.

Results

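The Six3 locus of mouse chromosome 17 holds Six3, its opposite-strand transcript gene Six3os1 and, farther along, Six2. These 3 genes were taken by symbol from the authors' tables of changed genes in mouse embryonic stem cells. Those tables compare cells given an shRNA that targets Mrhl, a nuclear long non-coding RNA, with cells given a scrambled shRNA. They are 3 of the 1131 gene symbols that the tables give with 1 direction, and each stood in the table of genes higher in sh-Mrhl. They were chosen by those signed values, so the values are a description and no test of them was made.

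The samples were RNA sequencing libraries of the cell line E14tg2a, derived from the 129/Ola strain, harvested 48 hours after transfection, with 2 sh-Mrhl and 2 scrambled libraries. Per the labels' protocols the cells grew on gelatine in serum-containing medium and were transfected transiently, although a label field calls the constructs lentiviral. Nothing in the labels says whether the 2 libraries of a group came from separate cultures, and all 4 come from 1 line. The tables analysed here hold 1 signed fold-change value per gene and no value per library, count or p-value. No spread between libraries, no depth and no level of Six3, Six3os1 or Six2 in either group can therefore be given. The scale of the value, log2 or signed linear fold, is not stated. Nothing below is converted, and only the sign and the order of values are read, which are the same on both scales.

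Proteins of the sine oculis homeobox family, to which Six3 and Six2 belong, are transcription factors in which a conserved domain that binds partner proteins stands beside a homeodomain, which binds DNA. Many of them act with EYA co-activators, while SIX3 is known mainly as a repressor that recruits TLE (Groucho) co-repressors. In the mouse embryo Six3 is needed in the anterior neural plate, where it holds back Wnt signalling so that the forebrain can form, and in the lens and retina. Six3os1, also called RNCR1, is a long non-coding RNA gene known from the developing retina and brain. Six2 maintains the nephron progenitors of the embryonic kidney in an undifferentiated state and also acts in the skull base and the stomach. None of the 3 is a marker of undifferentiated embryonic stem cells.

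The promoters of the 3 genes are shown so that their sequences can be compared. Each gene has its own promoter window. The windows run from 250 bases before to 50 bases after the RefSeq start, 5′ to 3′ on the strand of the gene, and come from RefSeq on GRCm38.p6. All 3 symbols were found there. Capitals mark the sequence CCAAT or its reverse complement ATTGG. The windows are chr17:85620584-85620883 on the plus strand for Six3, chr17:85618347-85618646 on the minus strand for Six3os1 and chr17:85688205-85688504 on the minus strand for Six2.
Six3: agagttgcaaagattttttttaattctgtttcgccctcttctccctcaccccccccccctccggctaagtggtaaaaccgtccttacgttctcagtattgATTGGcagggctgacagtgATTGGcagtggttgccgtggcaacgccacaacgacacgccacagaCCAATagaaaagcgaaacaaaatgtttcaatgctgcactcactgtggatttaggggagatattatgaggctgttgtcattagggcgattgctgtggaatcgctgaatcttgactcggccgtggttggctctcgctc
Six3os1: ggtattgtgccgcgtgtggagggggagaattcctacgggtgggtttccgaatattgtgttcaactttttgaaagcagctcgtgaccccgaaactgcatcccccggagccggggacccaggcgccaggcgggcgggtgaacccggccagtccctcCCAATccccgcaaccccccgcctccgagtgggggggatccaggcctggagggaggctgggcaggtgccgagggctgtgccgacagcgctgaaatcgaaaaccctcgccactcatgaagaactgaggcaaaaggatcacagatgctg
Six2: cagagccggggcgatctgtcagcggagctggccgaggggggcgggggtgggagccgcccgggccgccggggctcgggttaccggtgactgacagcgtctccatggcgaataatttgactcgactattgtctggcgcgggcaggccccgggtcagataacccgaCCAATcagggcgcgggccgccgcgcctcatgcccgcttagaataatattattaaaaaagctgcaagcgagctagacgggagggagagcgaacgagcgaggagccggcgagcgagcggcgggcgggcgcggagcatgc

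All 3 windows held a CCAAT sequence, the letters of the CCAAT box that the factor NF-Y is known to bind. Six3 held 3 of them, whose leftmost bases stood at positions -150, -131 and -86 from the start, the start base being 1. Six3os1 held 1 at -96 and Six2 held 1 at -87. At least 1 such sequence on either strand was present in 37.4% of the 32841 promoter windows in the reference, and at least 3 in 3.37%. A single CCAAT is thus common, and 3 in one window are less so. The motif was picked for display after the sequences had been seen, and a match is only a match of letters.

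Other letters differed between the 3 windows. GGGCGG, the GC box, was found 0 times in the Six3 window, 1 time in that of Six3os1 and 3 times in that of Six2, on both strands together, and at least 1 copy stood in 35.7% of all windows. TAAT, the core that many homeodomains recognise, was found 3 times in the Six3 window, 0 times in that of Six3os1 and 4 times in that of Six2, with at least 1 in 58.0% of all windows. None of the 3 windows held TATAAA, which 13.6% of all windows held. TAAT can overlap a CCAAT or TATAAA match by single bases, and such overlaps were counted for each motif.

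The 3 promoters were also unlike in base composition. The Six2 window held 37 CpG dinucleotides, more than 94.4% of all windows, and 67.3% of its bases were G or C. The Six3os1 window held 20 CpG dinucleotides, more than 73.5% of all windows, with 63.0% G or C. The Six3 window held 14, more than 63.7% of all windows, and its share of G and C exceeded that of 39.3% of them. The median window held 7 CpG dinucleotides. The gene with the largest fold-change value of the 3 therefore had the fewest CpG dinucleotides in its promoter window, which for 3 genes is a description only. The longest stretch made of purines alone or pyrimidines alone was 14 bases in the Six3 window, 12 in the Six3os1 window and 11 in the Six2 window, against a median of 11.

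**Figure D1:**
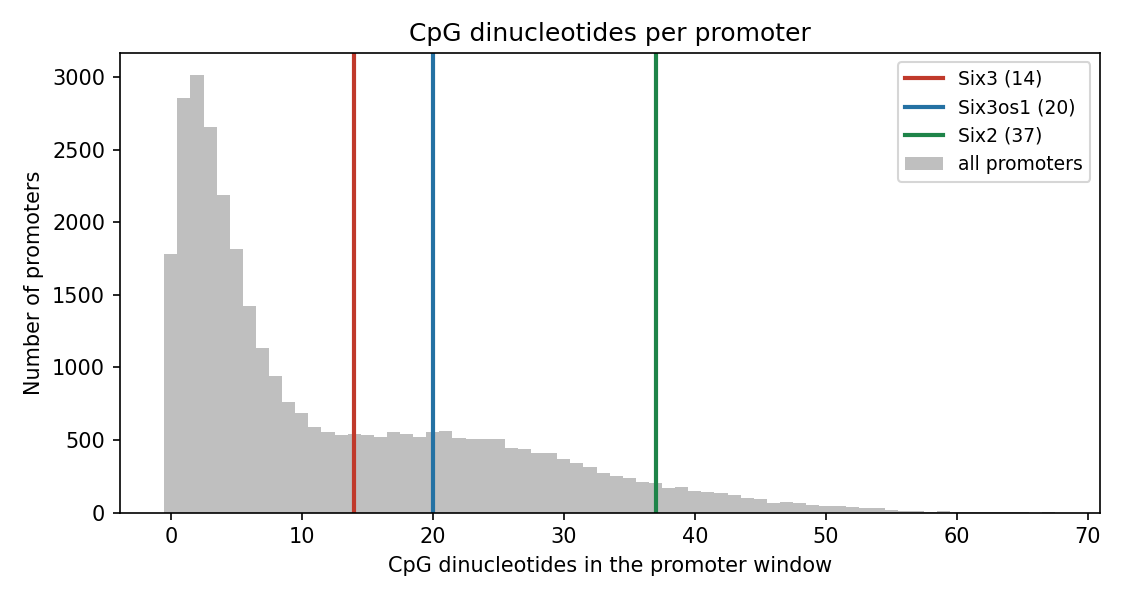
Number of promoter windows (vertical axis) with each number of CpG dinucleotides (horizontal axis) in the RefSeq reference, with coloured lines for the 3 genes. All 3 lines lie above the median of 7, with Six3 at 14, Six3os1 at 20 and Six2 at 37.

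The coding sequences of Six3 and Six2 are shown where they are most alike, since both genes belong to 1 family and reads could in principle be shared between them. In GENCODE M21 on GRCm38 the Six3 coding sequence is 999 bases long and that of Six2 888 bases, without the stop codon. A local alignment joined 561 bases of each, of which 427, or 76.1%, were identical. The stretches below are the 120 coding bases with the most identities, in capitals where the pair differ. They are bases 505 to 624 of Six3, at chr17:85621744-85621863 on the plus strand, and bases 256 to 375 of Six2, at chr17:85687578-85687697 on the minus strand, counted from the first base of the start codon.
Six3: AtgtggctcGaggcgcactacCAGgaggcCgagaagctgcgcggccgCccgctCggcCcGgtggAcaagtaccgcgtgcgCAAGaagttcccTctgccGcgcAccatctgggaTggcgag
Six2: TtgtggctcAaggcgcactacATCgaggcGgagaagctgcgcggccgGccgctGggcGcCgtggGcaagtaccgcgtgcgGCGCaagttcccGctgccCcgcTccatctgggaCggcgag

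In this stretch 101 bases were identical and 19 differed. The longest run of bases that both coding sequences share exactly was 17 bases. Over the whole transcripts, the longest stretch shared exactly was a CT repeat of 60 bases. The length of the reads, and what was done with reads that match several places, is not given in the sources used here.

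Six3 had a value of 4.74 in the authors' deposited table of higher genes, rank 3 of the 410 symbols listed only as higher. The authors' deposited table typed it as protein-coding and described it as sine oculis-related homeobox 3. A pair of non-coding genes stood above it in the authors' deposited table, the pseudogene C920009B18Rik at 9.52 and the misc_RNA model Gm27403 at 7.33. Below it stood Sycp2l, a relative of a synaptonemal complex gene, at 4.32. Six3 lay well above the median of the higher genes, 1.94, and above their upper quartile, 2.17.

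Six2 had a value of 1.80 in the authors' deposited table, rank 281 of 410, and was typed as protein-coding. Six3os1 had 1.55 in the authors' deposited table, rank 370 of 410, and was typed as a processed transcript. Both lay below the median of the higher genes. Around Six2 the authors' deposited table gave 1.807 for Gm44421, 1.806 for Gm6274, 1.797 for Gm14407 and 1.793 for the sulfotransferase gene Sult2a4. Around Six3os1 its values ran from 1.549 for Gm17210 and Gm38099 to 1.546 for Gm8098 and 1.545 for Gm45174. The smallest value in that table was 1.503, so Six3os1 was close to the edge of the list, with 40 higher genes below it. Whether Six3, Six3os1 or Six2 would differ from their level in scrambled cells beyond the spread between libraries could not be tested.

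**Figure D2:**
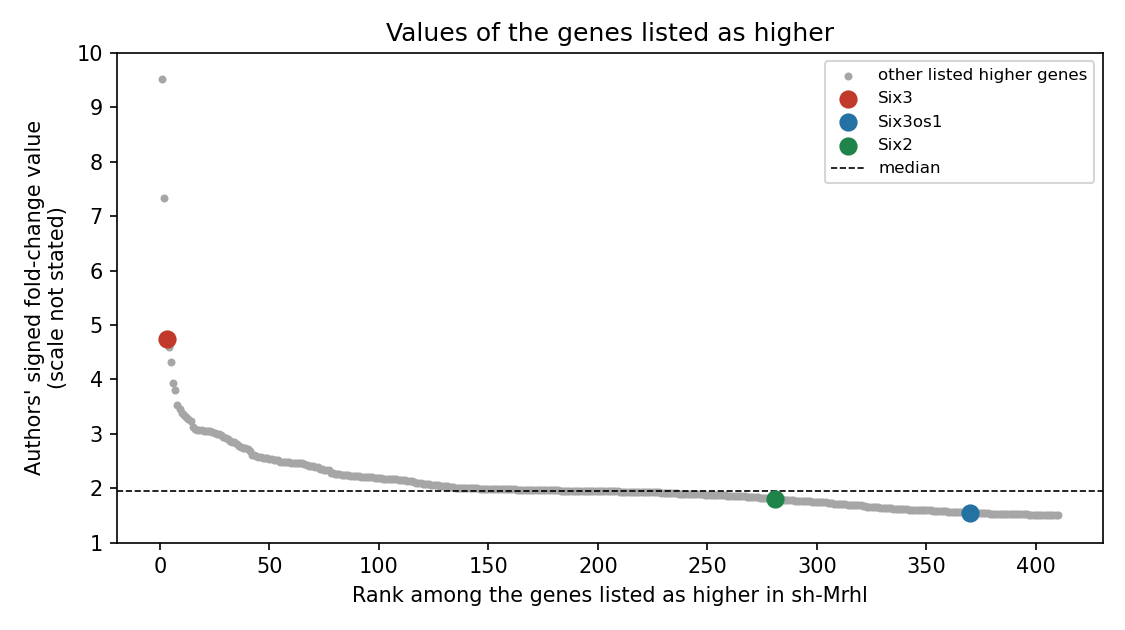
The authors' signed fold-change value (vertical axis, scale not stated) of each gene listed as higher in sh-Mrhl against its rank (horizontal axis), with the median dashed. Six3 has rank 3 at 4.74, whereas Six2 at 1.80 and Six3os1 at 1.55 lie on the flat lower part, under the median of 1.94.

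Of 55341 annotated gene symbols, 0.737% were listed as higher and 1.30% as lower, and of the listed symbols 36.3% were higher. Since the rule took the 3 genes from these lists, nothing is read from their being 3 of 3 higher.

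Six3 spans chr17:85613608-85629302 on the plus strand (ENSMUSG00000038805.10) in GENCODE M21. Its assembly, GRCm38, is the mm10 build that the submitters' processing notes name. Six3os1 spans chr17:85600651-85618398 on the minus strand (ENSMUSG00000093460.9), and Six2 spans chr17:85684277-85688274, also on the minus strand (ENSMUSG00000024134.11). The genes together cover 87624 bases. The RefSeq starts of Six3 and Six3os1 are 2438 bases apart and point away from each other, so the pair is arranged head to head. The RefSeq start of Six2 is 67420 bases from that of Six3, and the 2 homeobox genes point towards each other.

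The overlap of Six3 with Six3os1 rests on 1 of the 3 annotated Six3 transcripts. Transcript Six3-202 begins 7226 bases upstream of the RefSeq start, with a short first exon inside Six3os1, and shares 106 exonic bases with it. The other transcripts, Six3-203 and Six3-201, share 0. These 106 bases are 1.95% of the 5446 exonic bases of Six3 and 0.892% of the 11884 exonic bases of Six3os1, whose 13 annotated transcripts were merged. If reads were counted without strand, those in these 106 bases could not be assigned to one gene or the other. Whether the counting used strand is not stated in the sources used here. A further antisense model, Gm28528, shares 168 exonic bases with Six3 and was not listed. Inside the span lie 7 misc_RNA models, all on the plus strand, of which 6 overlap an exon of Six3os1. None of the 7 was listed, but only 2.04% of all annotated symbols were, so nothing is read from this. Elsewhere 6 misc_RNA genes were listed, 2 as higher and 4 as lower. The share of all misc_RNA genes that were listed was not computed.

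Within 1 Mb on each side of the 3 genes GENCODE M21 has 39 genes, the 3 included, and only the 3 were listed. The same 3 were the listed ones of 21 genes within 500 kb. Of all annotated symbols 2.04% were listed, and the 3 were taken from the lists, so nothing is read from these counts. The nearest protein-coding neighbours were Camkmt, which encodes a calmodulin methyltransferase, on the side of Six3os1, and Srbd1 and the protein kinase C gene Prkce on the side of Six2. None of these was listed, and neither was Lrpprc, which encodes a regulator of mitochondrial RNA. A pair of the lincRNA models next to Six2, AC166821.1 and AC151289.1, carry clone-based symbols, of which the authors' tables hold 2 in all. The annotation the authors used is not given, so the absence of such a model may only mean that it was not counted. The nearest other listed gene was 4833418N02Rik, 1587 kb away, at 1.81 in the authors' deposited table. A gene outside the lists may still have changed, since values of such genes were not analysed here.

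**Figure D3:**
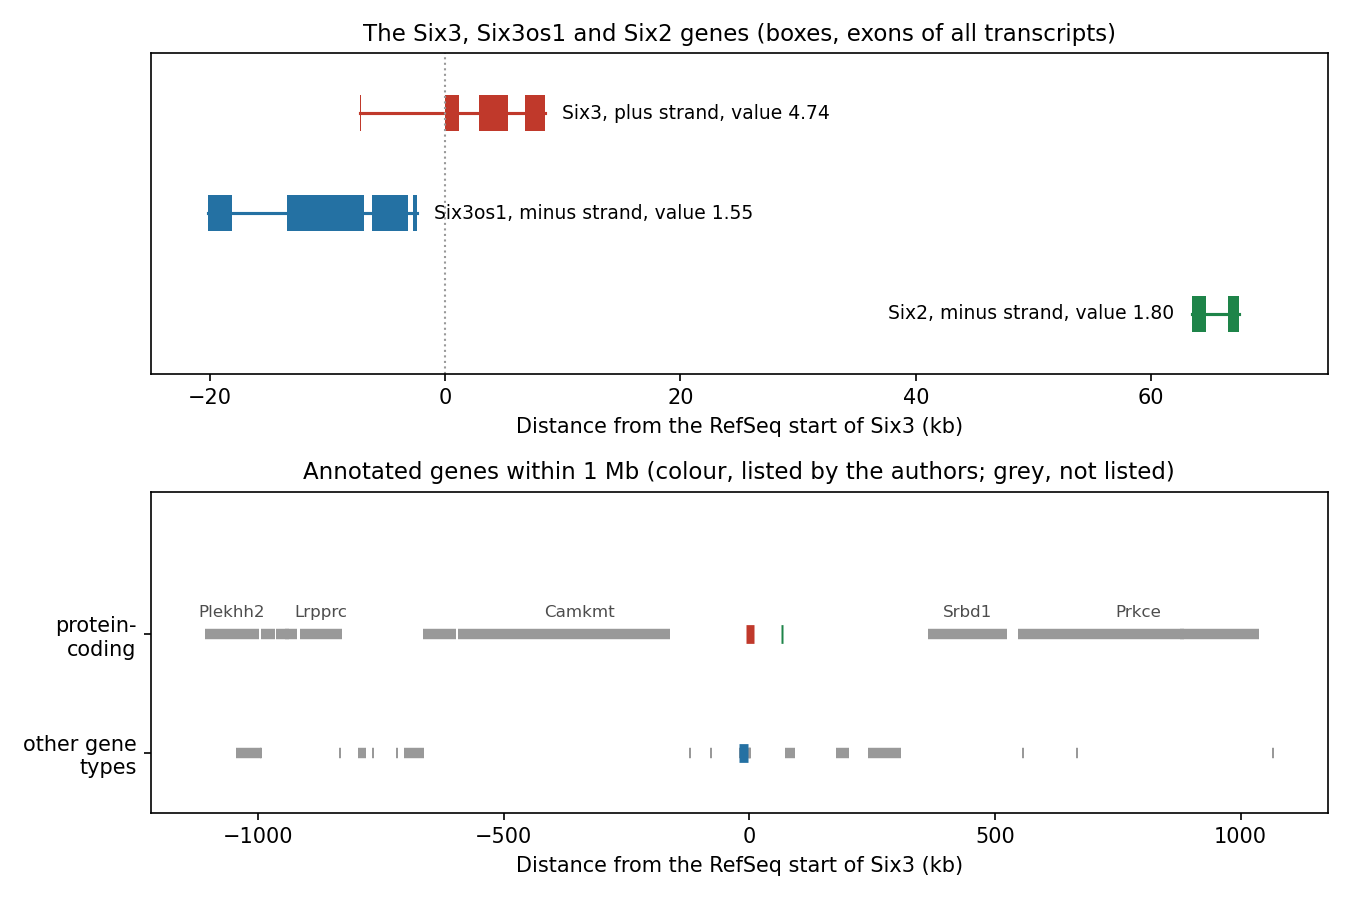
Top, the 3 genes by distance from the RefSeq start of Six3 (kb), with exons of all transcripts as boxes and the authors' value beside each gene. Bottom, all 39 annotated genes within 1 Mb, with the 3 listed genes coloured and the 36 others grey.

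Other places with several listed genes were found by joining listed genes less than 100 kb apart. There were 14 such clusters with at least 3 listed genes. In 10 of them the directions were mixed and in 2 every gene was lower. In 2 every gene was higher, namely the Six3 locus and a keratin cluster on chromosome 15. The Six3 locus was taken from these lists, so nothing is read from its genes sharing a direction. Of all listed symbols, 36.3% were higher, and whether 2 such clusters exceed what that share would give was not tested. In the authors' deposited table the keratin genes Krt72, Krt79 and Krt1 ranged from 1.73 to 3.34. The Hox cluster on chromosome 11 was mixed, with Hoxb8 at 2.44 against Hoxb7 at -3.32 and Hoxb3os at -2.66 in the authors' deposited tables. With listed genes less than 50 kb apart, the Six3 locus no longer formed a cluster, as Six2 is 54974 bases from the end of Six3. On chromosome 17 as a whole, 18 listed genes were higher and 22 lower, or 45% higher, against 36.3% of all listed symbols. The 18 include the 3 genes taken from these lists, so nothing is read from this split.

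Six3os1 was set beside other genes named as the opposite strand of a gene. GENCODE M21 has 296 such genes with an annotated partner. Of these, 13 were listed, or 4.39%, against 2.04% of all annotated symbols. 4 of the 13 were higher and 9 lower, so that 30.8% were higher, against 36.3% of all listed symbols. The 13 and the 4 include Six3os1 itself, which was taken from these lists. Six3 with Six3os1 was the 1 pair with the partner listed too, but both were taken from these lists, so nothing is read from it. The other higher ones were Arhgap27os1 at 1.99, Gad1os at 1.79 and Tnk2os at 1.69, while Foxl2os, opposite a gene of the ovary and eyelid, was at -3.02 in the authors' deposited tables. Conversely, 6 named partners were listed without an opposite-strand gene. Of these, 4 were higher, with Erich2 at 2.61, Sardh at 2.40, Tmem132c at 1.97 and Grin1 at 1.65 in the authors' deposited tables. The other 2 were lower, with Runx2 at -2.51 and Lhx1 at -1.77 in the authors' deposited tables. The share of all named partners that were listed was not computed, and nothing is read from this split.

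Of the related genes examined, Six4, known from muscle, Six5, and Six6, the close relative of Six3 in the eye and pituitary, were not listed. By the descriptions in the authors' tables, 17 of the listed genes reported here are homeobox genes or their opposite strands, 7 higher and 10 lower. Among the 15 protein-coding ones, 6 were higher and 9 were lower, or 40% higher. Without Six3 and Six2, 4 were higher and 9 lower, or 30.8% higher. Of all listed symbols 36.3% were higher, so nothing is read from this split. Descriptions were read for listed genes only, so no share of all homeobox genes is given. Six3 had the largest absolute value of the 17 in the authors' deposited tables. Next among the higher ones came Hoxb8, the Iroquois gene Irx6 at 2.17, Pdx1, a regulator of the pancreas, at 2.15, and Hoxa9 at 1.95 in the authors' deposited table.

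**Figure D4:**
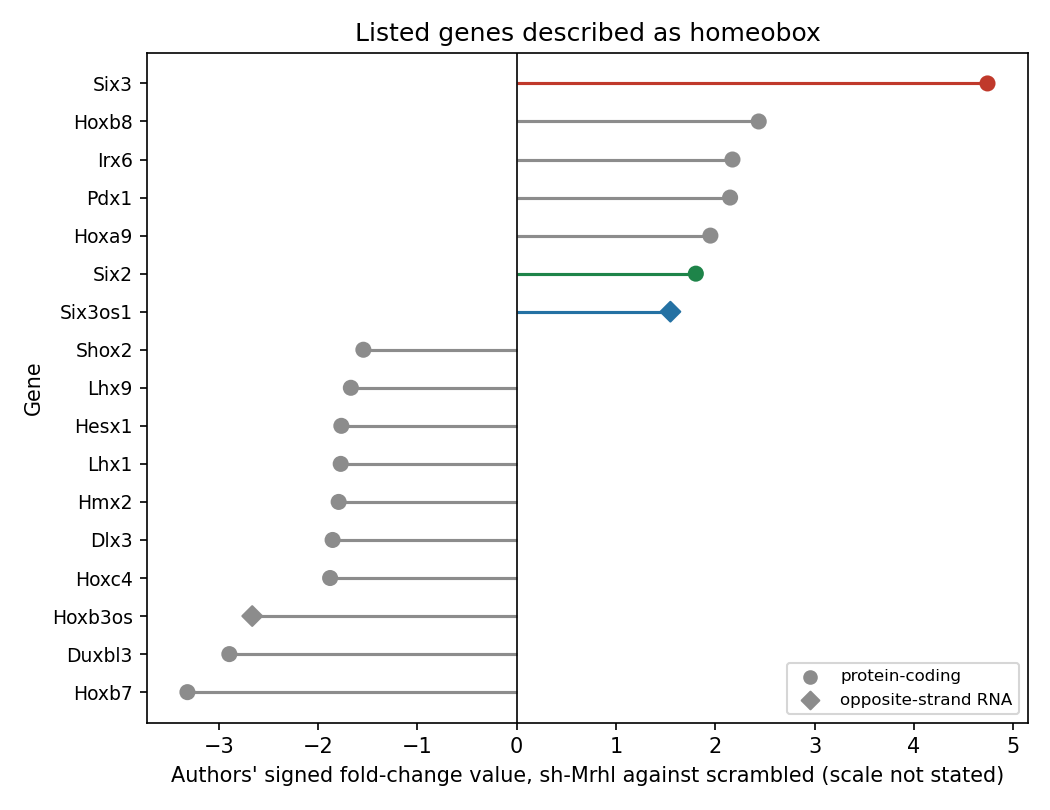
The authors' signed fold-change value (horizontal axis, scale not stated) of the 17 listed genes reported here that are described as homeobox or as the opposite strand of one, ordered by value. Six3 has the highest value, 4.74, Six2 at 1.80 and Six3os1 at 1.55 are the lowest of the 7 positive values, and 10 genes are negative, down to -3.32 for Hoxb7.

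Few genes of any kind were listed, and the counts of genes that work with Six3 or Six2 were small. Over 5 lists, which as reported here hold 106 annotated genes besides Six3 and Six2, 4 were listed, or 3.77%, against 2.04% of all annotated symbols and 2.50% of protein-coding ones. Of 15 Pax, Eya and Dach genes, the partners of these factors in eye, ear and kidney, 1 was listed, Eya4, a co-activator gene known in humans from the inner ear and heart, at -1.82 in the authors' deposited table. Of 34 forebrain and eye field regulators, 1 was listed. This was Hesx1, a repressor gene of the early forebrain and pituitary that is also named for its expression in embryonic stem cells, at -1.77 in the authors' deposited table. Rax, Pax6, Lhx2 and Otx2, which act with Six3 in the eye field, were not listed.

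Of 26 annotated genes known as co-factors or targets of SIX3, 1 was listed, the lens crystallin gene Cryba1, at -2.16 in the authors' deposited table. Wnt1 and Wnt8b, which SIX3 represses in the mouse neural plate and retina, and the co-repressor genes Tle1 and Tle4 were not listed. Of 36 nephron progenitor and kidney induction genes, Lhx1 was listed, a LIM homeobox gene of the kidney and head organiser, at -1.77 in the authors' deposited table. Osr1, Sall1, Wt1, Pax2, Eya1 and Cited1, which mark or maintain the same progenitors as Six2, were not listed. None of 7 embryonic stem cell markers, among them Nanog and Pou5f1, was listed. Nor was any of 5 neural progenitor or 4 nephron progenitor markers. Only 2.50% of annotated protein-coding symbols were listed, so sets this small would often hold none, and nothing is read from these counts. No levels were available, so the cell type could not be checked against these markers. In bulk libraries, more or fewer cells of a type cannot be told apart from more or less RNA per cell.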

How the data were processed

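RNA from 2 sh-Mrhl and 2 scrambled libraries was sequenced by the authors. Per the submitters' processing notes, TopHat2, Cuffdiff and the mm10 build were used. No version, annotation, test or threshold is given in the sources used here. The authors deposited 2 tables with 1 signed fold-change score per gene, and the file headers do not state its scale. Repeated symbols were counted once, and 1 symbol in both tables was left out. The smallest absolute values were 1.500 among lower and 1.503 among higher genes. Depth is unknown, so no interval, replicate error or test was possible for the value of any gene. The tests planned for counts or FPKM were not run.

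Of 1131 symbols, 1128 were found in GENCODE M21 (GRCm38). Promoter windows of 300 bases came from RefSeq on GRCm38.p6. Motifs were searched on both strands. Coding sequences were aligned locally with Biopython 1.88 (match 1, mismatch -1, gap opening -5, gap extension -1). Functions were tested on made-up sequences and intervals with known answers.

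The members and lists were chosen with earlier results of these data known. Named genes are the members, listed genes within 1 Mb, listed members of the 5 lists, and the 2 genes above and below each member in rank. The first gene below Six3, and some genes of the lists and of the homeobox set, are not reported here. Any other gene was named with its value in view. Alternatives changed the genes ranked, the window, a minimum absolute value of 2, the rows counted and the promoters compared. Computations ran in Python 3.11.15 with pandas 2.3.3, scipy 1.17.1, numpy 2.4.6 and, for plots, matplotlib 3.10.9.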

Additional observations from a re-analysis of the deposited data

How the results depend on the processing

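Six3 ranked first, at rank 1, both among protein-coding genes only and without unnamed gene models (Gm and Rik symbols), against rank 3 among all higher genes. Six2 ranked 154 among protein-coding genes and 153 without unnamed models, against 281, and Six3os1 ranked 195 without unnamed models, against 370. These shifts come from ranking fewer genes. With absolute values of at least 2, Six3 remained at rank 3, and Six2 and Six3os1 dropped out. Their values fixed these outcomes in advance. At this cut the list of Six3 relatives kept 1 listed gene, Six3 itself. The Pax, Eya and Dach list, the forebrain and eye field list and the kidney list each had 0. With values of at least 2 the share of higher genes was 29.8%, against 36.3%, and the cause was not tested. An alternative added after the data were seen counted clusters of at least 3 listed genes with every gene higher. It gave 2 with gaps under 200 kb and 0 with gaps under 50 kb. Of 22 alternatives run, 11 stayed within 1.5 times the value reported or, for the share of higher genes, within its 95% Wilson interval, which covers counting error only. Some of the 11 could not have come out otherwise. These are the rank of Six3 at the cut of 2 and the counts around the locus within 500 kb and of protein-coding genes. The count of 11 is therefore no measure of stability. No paired analysis was possible because no table gives a value for a single library, and for this reason leaving out libraries, other pseudocounts and other normalizations were not run either. The depth of the libraries, and with it the limit it sets, is unknown.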

Other observations

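The misc_RNA model Gm27403, which stands above Six3 in the authors' deposited table at 7.33, lies on chromosome 3 in a cluster with Gm42692 at 1.76 and Gm42693 at -1.70. It is not one of the 7 misc_RNA models inside the Six3 locus. Of the 14 clusters with at least 3 listed genes, the 1 at the Six3 locus and 1 other, around Tnf, were on chromosome 17.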
